A study of Arabidopsis thaliana with 12 samples.

Results

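The response of Arabidopsis thaliana inflorescences to nuclear entry of HANABA TARANU (HAN) was examined 12 h after treatment with dexamethasone (Dex). It was read from 4 two-colour oligonucleotide arrays, chosen by their titles as the 12 h arrays, out of 12 arrays in all. The other 8 were taken 4 h and 72 h after treatment, 4 at each time. The growth protocol gives 35S:HAN-GR for all plants, and the background was Landsberg erecta. Under genotype, however, the labels call the mock channel control and the Dex channel HAN overexpression. Both were taken as 35S:HAN-GR, and a difference in genotype, if there was one, cannot be told apart from Dex. Each 12 h array set RNA of plants treated with 10 µM Dex against RNA of mock-treated plants of the same time, from inflorescences with flower buds of stages 1 to 9. The labels call the 4 arrays biological replicates. They do not say how many transgenic lines or plants went into each sample. Wild-type plants given Dex were not sampled, and what Dex does by itself cannot be told apart from what the fusion protein does. The 35S promoter drives expression in most plant tissues, beyond the cells in which HAN is normally active.

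HAN is a GATA-type zinc finger factor needed for normal flower meristems, organ boundaries and organ number. In a fusion to the glucocorticoid receptor (GR) the hormone-binding part of the receptor keeps the factor in the cytoplasm, and Dex releases it to the nucleus. By 12 h, direct targets and genes downstream of them can both have moved, and an array does not separate them. The study's title calls HAN a repressor and names hormone action and its own gene family among the questions. None of the 6 listed GATA loci, HAN among them, had a named probe in the table used here, so the induced factor itself was not analysed here. An inflorescence is a mixture of cell types, and fewer cells of a type cannot be told apart from less RNA per cell.

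Values are log2 ratios after each array was centred on its median. They are read as Dex over mock, the likely direction, which neither the labels nor the table state. With the sign turned, every rise below is a fall and every fall a rise. Per the labels, Dex RNA carried Cy3 on replicates 1 and 4 and Cy5 on replicates 2 and 3. Over the tested features, arrays of the same labelling correlated at 0.71 and 0.73 and arrays of opposite labelling at 0.39 to 0.49. Each array had 21888 to 22384 gene probes with a value, of which 9.43% to 13.18% lay at the limit of the scale, a 100-fold ratio either way, and were set missing. With those values kept, arrays of opposite labelling correlated at -0.722 to -0.671 over all gene probes, and those of the same labelling at 0.696 and 0.826. The side of the limit went with the labelling. Replicates 2 and 3 had 2511 and 2730 values at the upper limit and 46 and 209 at the lower. Replicates 1 and 4 had 121 and 4 at the upper limit and 2197 and 2060 at the lower. Among 1360 probes at a limit on all 4 arrays, 0 had the same sign on all. Results given below with limit values kept include these values. The table holds ratios and no intensities, so precision is given by the spread over arrays.

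At 12 h, 2867 of 18126 tested features passed the test, 15.8% of all, with 967 higher (5.33%) and 1900 lower (10.5%) in Dex. A feature is a named locus or an unnamed probe with a value on at least 3 of 4 arrays at each time. The test was limma's moderated test of the 12 h mean against 0, two-sided, with Benjamini-Hochberg adjusted p under 0.05. Among the 10625 named loci, 500 were higher (4.71%) and 996 were lower (9.37%). The falls were also deeper. Their median was -0.79 on the log2 scale, against 0.59 for the rises, and 658 features fell by over 1 while 194 rose by over 1. Beyond 2 on the log2 scale there were 95 falls and 19 rises. Across all tested features the median absolute 12 h ratio was 0.17 and the median SD between the 4 arrays was 0.19. The count was 1838, 1767 and 1739 without 12 h replicates 2, 3 and 4, and 4398 with the 12 h arrays fitted alone.

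The 20 largest rises and the 20 largest falls among named loci whose sign was the same on all 4 arrays spanned oxidative enzymes, glycoside enzymes, transporters and regulators. The class III peroxidase gene AT2G38380 stood at 2.99, 4.99, 3.79 and 3.64 on replicates 1 to 4, a mean of 3.85 ± 0.83 (SD, n = 4; 14.4-fold; limma adjusted p = 2e-05). The beta-glucosidase gene BGLU47 stood at 2.91, 3.69, 3.82 and 2.90 (10-fold; adjusted p = 2e-06). None of the 8 values lay below 2.90, and replicate 2 of the peroxidase gene was the highest. SAL2, which encodes a phosphatase of the inositol phosphate and sulphur nucleotide family, came after AT2G25450 with 1.96, 2.97, 3.29 and 2.54 (6.45-fold; adjusted p = 1.1e-05), and with limit values kept its adjusted p was 0.058.

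The 3 lowest means belonged to AT2G30540, of the CC-type glutaredoxins, to AOP3 and to AT3G62930, another CC-type glutaredoxin. AOP3, a dioxygenase that modifies the side chain of aliphatic glucosinolates, stood at -2.60, -3.48, -3.30 and -3.31 (9.03-fold lower; adjusted p = 2.3e-06). AT3G11680, from the malate transporters of the ALMT type, was at -2.67, -2.79, -2.88 and -2.74, with an SD of 0.09 for a mean of -2.77. Its 4 arrays spread least among these falls. AT1G61660 stood at -2.49, -2.36, -2.21 and -2.66 (5.38-fold lower; adjusted p = 1.5e-06). CHAT, an acetyltransferase that makes the leaf volatile hexenyl acetate, fell on every array, from -2.16 on replicate 3 to -2.79 on replicate 4 (5.35-fold; adjusted p = 1.9e-06). AT5G62340 spread most among the 20 falls, at -2.63, -1.60, -1.56 and -3.54. Its replicates 1 and 4, with Dex RNA in Cy3, were the lowest, and its adjusted p of 0.00039 became 0.059 with limit values kept, as did that of AT5G50130 (9e-06 to 0.059).

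Of the 20 rises, AT3G59270, AT1G52200, AT2G41730, AT5G24640 and NRT2.5 had adjusted p between 0.022 and 0.037, and each lost its call when 12 h replicate 2, 3 or 4 was left out. NRT2.5, a high-affinity nitrate transporter, stood at 1.02, 2.07, 2.32 and 1.98, and its adjusted p was 0.13, 0.14 and 0.097 without those replicates, 0.07 with a replicate block and 0.54 with limit values kept. AT3G59270, AT1G52200 and AT2G41730 also lost the call without replicate 1 (adjusted p = 0.061, 0.057 and 0.055). DFR, the dihydroflavonol reductase of anthocyanin synthesis, was among the least variable rises, at 1.84, 1.96, 1.75 and 1.93 (1.87 ± 0.09, SD, n = 4; 3.65-fold; adjusted p = 1e-05). MPC, a gene related to poly(A)-binding proteins, rose 4.07-fold (2.03 ± 0.39; adjusted p = 0.00023).

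**Figure D1:**
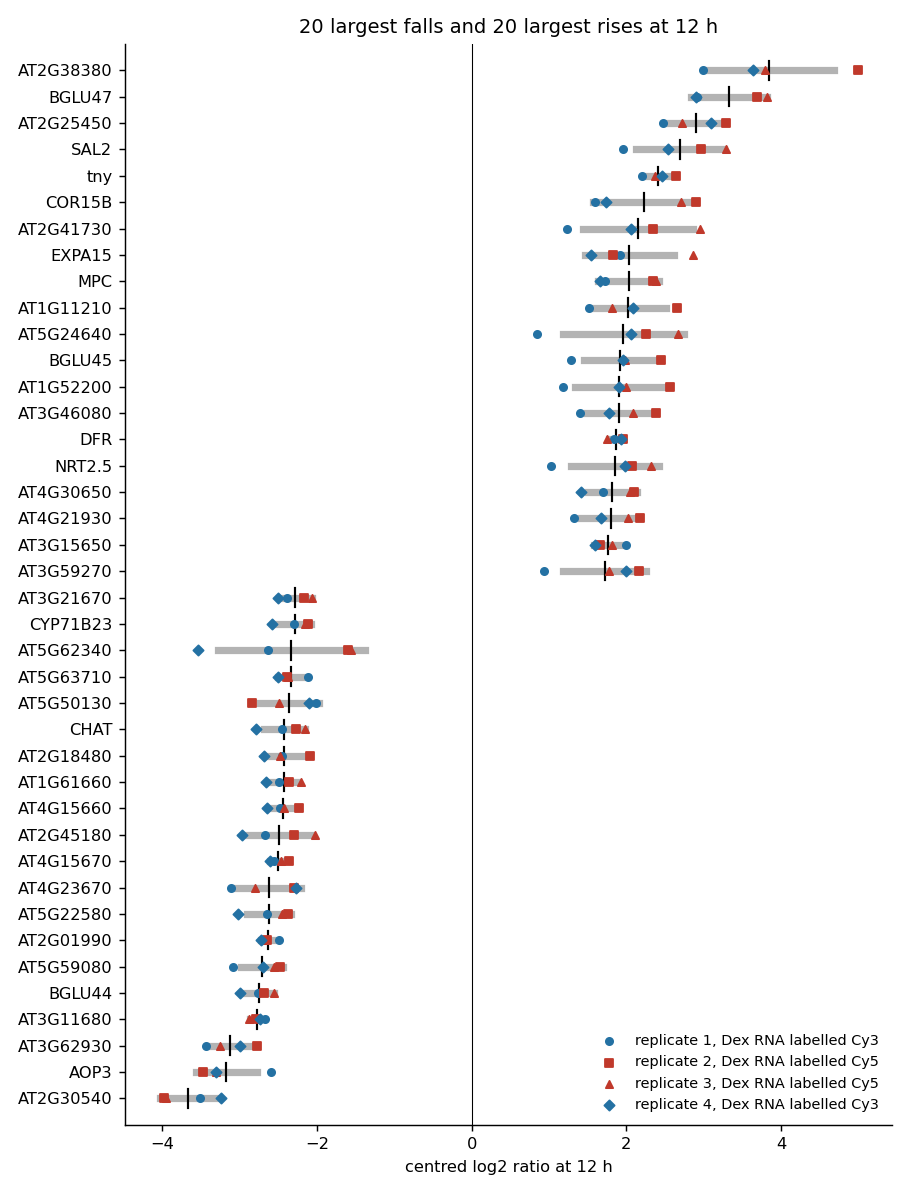
Centred log2 ratios at 12 h (x axis) of the 20 largest falls and 20 largest rises (y axis, 1 gene a line). Points are the 4 arrays, coloured by the dye of the Dex RNA, the tick is the mean and the grey bar spans 1 SD either side. AT2G38380 has the highest mean, 3.85, and AT2G30540 the lowest, -3.67.

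Gene families were then followed through 38 lists, of which 37 had tested members, 413 loci in all. In some lists, loci without a symbol in the gene table were placed from general knowledge of the family. Others hold only loci matched by symbol or synonym, and can be only part of the family on the array. Among these are the cytochrome P450, glutathione S-transferase, glycosyltransferase, beta-glucosidase, carboxypeptidase-like, expansin, bHLH, WRKY, bZIP and MADS-box lists. Close paralogs can share signal on one probe, which was not tested. The share of members called is to be read against 15.8% of all features, and list medians against the median of all features, 0.01.

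**Figure D2:**
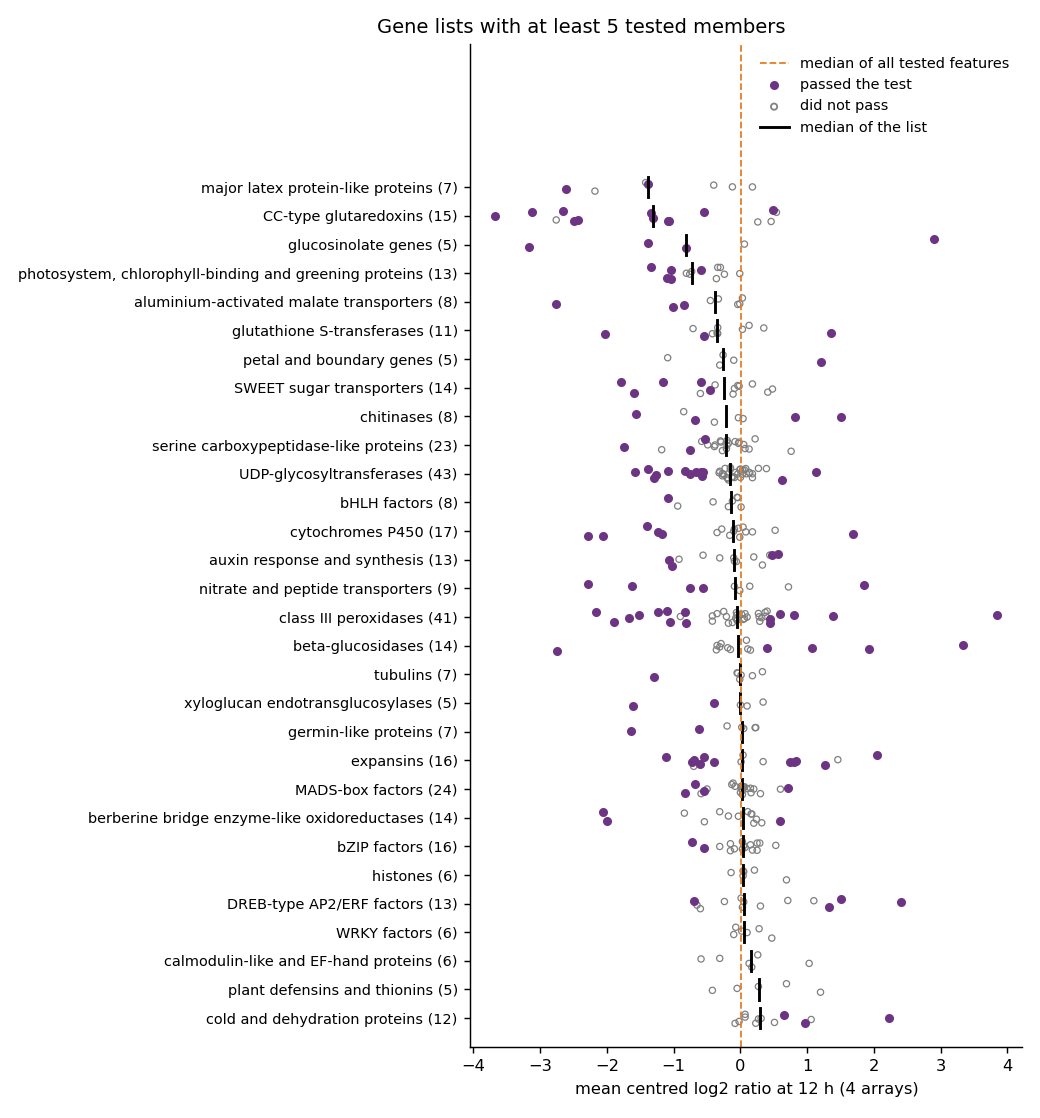
Mean centred log2 ratio at 12 h (x axis) of each tested member of the 30 lists with at least 5 tested members (y axis, number tested in brackets), filled where the member passed the test. The black tick is the list median. The major latex protein-like list has the lowest median, -1.39, and the cold and dehydration list the highest, 0.29.

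Regulators of flower form moved in both directions. RBE, a zinc finger repressor needed for petal initiation, rose on all 4 arrays, at 0.90, 1.26, 1.25 and 1.44 (2.32-fold; limma adjusted p = 6.8e-05). It was the 1 of 5 measured petal and boundary genes to pass. PTL, a trihelix factor that restrains growth between sepals, was at -0.26 ± 0.32 (adjusted p = 0.17), LOB, a boundary factor, at -0.31 ± 0.17 (0.72), and LAS, a GRAS factor of axillary meristems, at -0.10 ± 0.38 (0.76). CLV3, the peptide that limits the stem cell pool, had values on 3 arrays, -1.36, -0.65 and -1.24. All 3 were below 0, and its adjusted p was 0.51 in the fit that shares the spread of all times. It was 0.012 with the 12 h arrays alone and 0.029 without 72 h replicate 2, and the fitted ratio turned to 0.84 with limit values kept. UFO, an F-box partner of LEAFY and the measured gene of floral identity, was at -0.10 ± 0.11 (adjusted p = 0.67).

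Of 4 measured polarity and growth genes 2 fell. YAB3, a YABBY factor of the abaxial side of organs, stood at -0.92, -0.99, -1.07 and -1.22 (2.07-fold; limma adjusted p = 0.00023). JAG, a zinc finger factor that promotes organ growth, stood at -0.90, -0.72, -0.87 and -1.12 (1.87-fold; adjusted p = 0.0048). The ranges of both genes lay wholly below 0 and overlapped each other. PHV, an adaxial HD-ZIP III factor, was at -0.38 ± 0.18 (adjusted p = 0.059), and INO, a YABBY factor of the ovule's outer integument, at -0.07 ± 0.17 (0.82). Among 3 anther genes AMS, a bHLH factor of the tapetum, was at -0.36 ± 0.05 (adjusted p = 0.018), a call lost without 12 h replicate 1, 2 or 3 (0.056, 0.092 and 0.12). SPL, which starts sporocyte formation, and EMS1, a receptor kinase of tapetum fate, were at -0.02 ± 0.20 and 0.05 ± 0.15. DYT1, MS1 and A9 of that list were not analysed here.

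Of 4 cytokinin response regulators ARR15, a type-A regulator that cytokinin induces and that damps its signal, fell to -1.46, -1.72, -1.68 and -1.71 (3.12-fold; limma adjusted p = 0.00013), and the other 3 did not pass. One of them, RR21, stood at -0.78, 0.49, 6.13 and -1.03, with replicate 3 far above the others. Of 13 auxin genes 2 rose and 2 fell, with a list median of -0.09. The falls were the Aux/IAA repressor genes IAA31, at -1.07 ± 0.22 (adjusted p = 0.0025), and IAA18, at -1.06, -0.99, -1.03 and -1.01 (1.9e-05). IAA18 had an SD of 0.03 over its 4 arrays, the least of the genes named here. IAA33, a divergent member of the same family, was at 0.56 ± 0.15 (adjusted p = 0.0024, or 0.97 with limit values kept), and GH3.17, which conjugates auxin to glutamate, at 0.47 ± 0.12 (0.025). The call of GH3.17 was lost without any 1 of the 12 h replicates (0.066, 0.12, 0.066 and 0.13) and with a replicate block (0.078). PUP18, of the purine permease family that includes cytokinin carriers, fell by 1.55 on the log2 scale (SD 0.35; adjusted p = 2.2e-05), and PUP16 and PUP19, the other 2 tested, did not pass.

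Among transcription factor families the DREB-type AP2/ERF factors held the largest rises, with 30.8% of tested members called. The share was 16.7% for MADS-box, 12.5% each for bZIP and bHLH and 0% for WRKY genes, against 15.8% of all features. The AP2/ERF gene tny (TINY), whose overexpression dwarfs plants, stood at 2.20, 2.64, 2.37 and 2.46 (5.33-fold; limma adjusted p = 2.1e-06). TINY2 was at 1.51 ± 0.12 (2.84-fold; adjusted p = 0.01), and without 12 h replicate 4 its adjusted p was 0.056. AT4G32800 of the same list rose by 1.33 ± 0.13 (adjusted p = 1.1e-05) and AT1G77200 fell by 0.69 (SD 0.19; 0.0021), so that 3 of 13 rose and 1 fell, with a list median of 0.05. DREB-type factors bind the element found before many cold and drought genes. Of 12 cold and dehydration genes 3 rose and 0 fell: COR15B at 2.23 ± 0.66 (4.7-fold; adjusted p = 0.00019), LEA4-5 at 0.97 ± 0.32 (0.024) and COR47 at 0.65 ± 0.30 (0.013). COR15B, a chloroplast protein made in the cold, was at 2.90 and 2.71 on replicates 2 and 3 and at 1.59 and 1.74 on replicates 1 and 4, so its 2 labellings did not overlap. The count of 3 fell to 1 without 12 h replicate 3 (LEA4-5 at adjusted p = 0.078 and COR47 at 0.088) and to 2 without replicates 2 or 4.

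Of 24 MADS-box genes 1 rose and 3 fell, with a median of 0.03. AGL36, an imprinted endosperm gene, stood at 0.73, 0.71, 0.67 and 0.78 (1.65-fold; limma adjusted p = 0.0031), and AGL75 at -0.87, -0.92, -0.68 and -0.84 (1.78-fold; 0.00015). AGL24, a promoter of flowering that is repressed in floral meristems, was at -0.13, -0.80, -0.94 and -0.87, with replicate 1 near 0. AGL24 (adjusted p = 0.02) lost its call without replicates 2, 3 or 4 (0.069, 0.091 and 0.13), and AGL77 (0.045) without any 1 of the 12 h replicates (0.071 to 0.19), so 1 fall was left without replicates 2, 3 or 4. Among 8 bHLH genes given by name bHLH115, of the iron deficiency response, fell by 1.08 on the log2 scale (SD 0.15; adjusted p = 0.00032). Among 16 bZIP genes EEL, of seed maturation, was at -0.72 ± 0.09 (adjusted p = 0.0038) and BZIP34, of pollen development, at -0.54 ± 0.24 (0.0072). Of 6 WRKY genes 0 passed in limma's test, and 0 had an unadjusted p under 0.05. Array weights gave 2 calls among them.

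The CC-type glutaredoxins, small plant-specific redox proteins that bind TGA factors and include the petal and anther regulators ROXY1 and ROXY2, held a larger share of calls than most lists. Of 15 tested members 10 fell and 1 rose, 73.3% called, and the list median was -1.31. AT2G30540 stood at -3.51, -3.98, -3.95 and -3.24 (12.7-fold lower; limma adjusted p = 1.9e-06) and AT3G62930 at -3.43, -2.78, -3.26 and -2.99 (8.67-fold; 1.7e-05). The neighbouring genes AT4G15660, AT4G15670 and AT4G15680 were at -2.44 ± 0.17, -2.50 ± 0.11 and -2.66 ± 0.24, the last on 3 arrays. The arrays of the 3 genes overlapped, and AT4G15700 near them was at -1.34 ± 0.18 (adjusted p = 0.00078). ROXY2 was at -1.07 ± 0.32 (2.1-fold; adjusted p = 0.0065) and ROXY1 at -0.55 ± 0.24 (1.46-fold; 0.0081).

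The remaining calls of the family rested more on single arrays. AT3G62950 was at -1.50, -2.17, -0.81 and -0.78 (limma adjusted p = 0.0075, or 0.055 without 12 h replicate 2). AT3G62960 was at -1.62, -0.81, -1.48 and -0.41 (0.012, or 0.074 and 0.067 without replicates 1 and 3), and ROXY1 was at 0.064 without replicate 4. The 1 rise, AT5G11930, stood at 0.66, 0.59, 0.59 and 0.11 (adjusted p = 0.047), and the call was lost without replicate 1, 2 or 3 (0.19 each). AT1G06830 was at -2.62, -2.98, -3.04 and -2.41, a mean of -2.76 ± 0.30, and did not pass (0.088). Its 4 values lay well below 0, and its SD over the 72 h arrays was 3.61, which enters the shared spread. GRX480, AT1G03020 and AT4G33040 were at 0.26 ± 0.34, 0.46 ± 0.16 and 0.54 ± 0.31 and did not pass.

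Class III peroxidases, secreted enzymes that cross-link or loosen the cell wall, changed in both directions. Of 41 tested members 6 rose and 9 fell, and the median was -0.05. Beside AT2G38380, PRX52, a peroxidase of lignin formation, rose by 1.39 ± 0.19 (2.63-fold; limma adjusted p = 0.00081, or 0.63 with limit values kept). AT2G22420 was at 0.80 ± 0.22 (0.00087). The tandem pair AT4G37520 and AT4G37530 fell together, at -2.08, -2.06, -2.26 and -2.27 and at -1.78, -1.51, -1.66 and -1.73. AT4G30170 fell to -1.90 ± 0.13 (3.72-fold; adjusted p = 1.3e-05). PRXR1 was at -2.02, -0.98, -0.40 and -2.70, lower on both arrays with Dex RNA in Cy3 than on both others, and its adjusted p of 0.0076 was 0.057 without replicate 4. The count of rises was 3 without replicate 2 or 4, and 2 with limit values kept.

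In other oxidative and detoxifying lists 27.3% of glutathione S-transferases and 21.4% of berberine bridge enzyme-like genes were called. The share was 36.6% for the class III peroxidases and 15.8% for all features. Of 11 glutathione S-transferases GSTU20 stood at -1.63, -2.05, -2.21 and -2.24 (4.09-fold lower; limma adjusted p = 9.4e-06), GSTU18 at -0.54 ± 0.07 (0.02) and GSTF3 at 1.35 ± 0.47 (2.55-fold higher; 0.0047). The call of GSTU18 was lost without any 1 of the 12 h replicates (0.051 to 0.099). Of 14 berberine bridge enzyme-like oxidoreductases AT2G34810 and AT5G44410 fell, the first to a mean of -2.06 ± 0.62, the second with arrays at -1.81, -1.89, -2.34 and -1.94, and AT1G30760 rose by 0.60 ± 0.08 (adjusted p = 2.5e-05, 1.8e-06 and 0.00046). AT2G34810 was at -2.50 and -2.67 on replicates 2 and 3 and at -1.46 and -1.59 on replicates 1 and 4.

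Of 17 cytochrome P450 genes 5 fell and 1 rose, with a median of -0.105. The 4 lowest neighbour each other in the gene table. CYP71B20, CYP71B21, CYP71B22 and CYP71B23 stood at -1.24 ± 0.23, -1.40 ± 0.23, -2.06 ± 0.17 and -2.29 ± 0.21 (limma adjusted p from 2.8e-06 to 0.00012). CYP71B24 of the same subfamily rose by 1.69 ± 0.36, at 1.38, 1.52, 2.21 and 1.66 (3.23-fold; 1.1e-05). The lowest array of CYP71B24 and the highest of the other 4 genes, -0.96, lay on opposite sides of 0. Of 4351 pairs of tested loci that neighbour each other in the gene table, both members were called in 123, 69 of them both lower, 20 both higher and 34 in opposite directions. Over all named loci 9.37% were lower and 4.71% higher, and pairs that do not neighbour each other were not counted. AT5G38120 and AT5G38130 were a neighbouring pair called in opposite directions, at -1.40 and 1.69, and were picked out after their values were seen.

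Enzymes of glycosides and of glucosinolates, the sulphur-containing defence compounds of the cabbage family, held several of the largest changes. Of 5 tested glucosinolate genes 3 fell and 1 rose. AT2G25450 stood at 2.48, 3.29, 2.72 and 3.10 (7.46-fold higher; limma adjusted p = 9.1e-06), above 0 on every array, while AOP3 was as low as given above. UGT74B1, the glucosyltransferase that forms the core structure, was at -1.08, -1.50, -1.26 and -1.68 (2.6-fold lower; 0.00039), and AT2G31790 at -0.81 ± 0.28 (0.00092). GTR2, a transporter of glucosinolates, stood at -1.58, -1.62, -1.67 and -1.67, an SD of 0.04 for a mean of -1.63 (3.1-fold lower; 3.3e-05).

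Of 14 beta-glucosidases 4 rose and 1 fell, and the median was -0.03. Beside BGLU47, the adjacent genes BGLU45 and BGLU46, whose enzymes release lignin precursors from their glucosides, rose by 1.92 ± 0.47 and 1.08 ± 0.21 (limma adjusted p = 3.3e-05 and 0.00024). BGLU25 was at 0.40 ± 0.22 (0.014), and its call was lost without replicates 1, 2 or 4 (0.089, 0.078 and 0.051). BGLU44 fell to -2.75 ± 0.19 (6.71-fold lower; 1.5e-06). Of 43 UDP-glycosyltransferases, which attach sugars to hormones and metabolites, 2 rose and 11 fell, and the median was -0.15. UGT88A1 stood at -1.49, -1.51, -1.57 and -1.74 (2.98-fold lower; 4.5e-06), UGT76E11 at -1.26 ± 0.29 (2.7e-05) and UGT85A2 at -1.29 ± 0.38 (0.0012, or 0.7 with limit values kept). UGT74F1, which glucosylates salicylic acid, rose by 0.63 ± 0.23 (0.0013), and UGT73C6 was at 0.50, 1.02, 1.35 and 1.70 (0.012, or 0.065 and 0.087 without replicates 3 and 4). Of 23 serine carboxypeptidase-like genes 3 fell, scpl31 at -1.53, -1.74, -2.08 and -1.67 (3.37-fold; 2.3e-06), scpl40 at -0.75 ± 0.20 (0.046) and scpl29 at -0.53 ± 0.18 (0.0059). The call of scpl40 was lost without any 1 of the 12 h replicates (0.096 to 0.16).

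Transport lists held more falls than rises, as did all tested features, of which 10.5% were lower and 5.33% higher. The share called was 35.7% of SWEET genes, 37.5% of malate transporters and 55.6% of nitrate and peptide transporters, against 15.8% of all features. The nitrate and peptide list had a median of -0.09. Of 14 SWEET genes, which encode sugar uniporters, 5 fell and 0 rose, and the median was -0.24. SWEET11, a sucrose exporter of the phloem, stood at -1.89, -1.66, -1.85 and -1.75 (3.45-fold; limma adjusted p = 1.4e-05), and SWEET1, a glucose carrier, at -1.87, -1.44, -1.78 and -1.32 (3.04-fold; 0.00014). SWEET10 was at -1.73, -0.93, -0.53 and -1.44 (2.23-fold; 0.0017) and SAG29 (SWEET15) at -0.59 ± 0.12 (0.0011). The arrays of SWEET11 and SWEET1 overlapped each other and lay below those of SAG29, the lowest of which was -0.72. Of 8 aluminium-activated malate transporters, anion channels of the cell and vacuole membranes, 3 fell, AT3G11680 as above, AT2G27240 to -1.01 ± 0.15 (0.0035) and AT1G25480 to -0.84 ± 0.22 (0.0019). Of 9 nitrate and peptide transporters 4 fell and 1, NRT2.5, rose. AT3G21670 stood at -2.39, -2.17, -2.06 and -2.51 (4.86-fold lower; 7e-06), and AT1G68570 and AT3G25260 were at -0.76 ± 0.26 (0.001) and -0.56 ± 0.15 (0.0035).

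Among cell wall genes, 11 of 16 expansins passed, 5 higher and 6 lower, 68.8% of those tested, and their median was 0.03. Expansins loosen bonds between wall polymers during growth. EXPA15 stood at 1.92, 1.83, 2.86 and 1.54 (4.11-fold higher; limma adjusted p = 0.00017), EXPA7 at 0.83 ± 0.11 (0.00011), and the expansin-like A genes EXLA3 and EXLA1 at 1.27 ± 0.26 (0.0031) and 0.80 ± 0.14 (0.0033). EXPB3, EXPA20 and EXPA16 fell, to -0.73 ± 0.19, -0.69 ± 0.15 and -0.61 ± 0.12 (adjusted p = 0.0014, 0.0011 and 0.0045). EXPB1 was at -0.87, -1.16, -1.04 and -1.37 (0.011), a call lost without replicates 2, 3 or 4 (0.063, 0.057 and 0.056), and the count of falls was 3 without replicate 2 and 4 without replicate 4. Of 5 xyloglucan endotransglucosylases XTH32 fell by 1.61 on the log2 scale (SD 0.31; 3.06-fold; 9e-06), and XTH33 was at -0.40 ± 0.16 (0.015, or 0.089 and 0.081 without replicates 1 and 2). PMEPCRF, a pectin methylesterase, rose on every array, at 1.27, 0.98, 1.13 and 1.15 (2.19-fold; 0.0005). Of 7 tubulin genes TUB5 fell to -1.29 ± 0.16 (2.44-fold; 1.6e-05). Of 6 histone genes and 4 genes of cyclins and mitotic kinases 0 passed in limma's test, with 0 and 1 at an unadjusted p under 0.05, and array weights gave 1 call in each list.

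Defence-related lists were small. The share called was 50% of chitinases, 28.6% each of germin-like and major latex protein-like genes and 0% of defensins and thionins. Over all features it was 15.8%. Of 7 major latex protein-like genes AT4G23670 stood at -3.11, -2.30, -2.80 and -2.27 (6.14-fold lower; limma adjusted p = 1.8e-05), and its neighbour AT4G23680 at -0.71, -1.45, -1.63 and -1.78 (2.62-fold lower; 0.0033). The list had the lowest median, -1.39, but the other 5 members did not pass. Of 8 chitinases AT2G43620 was at -1.57 ± 0.40 on 3 arrays (0.0016) and AT4G01700 at -0.68 ± 0.10 (0.0064), while AT2G43590 rose by 1.51 ± 0.39 (2.84-fold; 0.0025) and CHI was at 0.82 ± 0.14 (0.025). The call of AT4G01700 was lost without replicate 4 (0.051), and that of CHI without replicates 2, 3 or 4 (0.1, 0.13 and 0.086). Of 7 germin-like genes AT5G39110 stood at -1.35, -1.75, -1.84 and -1.63 (3.12-fold lower; 5.7e-05), and AT3G04180 was at -0.62 ± 0.03 (0.01, or 0.052 and 0.05 without replicates 2 and 4). Of 5 defensins and thionins 0 passed in limma's test, 0 had an unadjusted p under 0.05, and the 12 h arrays alone gave 1 call.

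Genes of the photosystems, chlorophyll-binding proteins and greening all had means below 0, and 5 of 13 passed, 0 of them higher (list median -0.73). PIFI, needed for electron flow around the photosystems, was at -0.59, -0.62, -0.52 and -0.63 (limma adjusted p = 0.017). PSAN, a subunit of photosystem I, stood at -1.27, -1.24, -1.27 and -1.57 (2.53-fold lower; limma adjusted p = 0.001) and was as low in both labellings. LHCB4.2, of the photosystem II antenna, was at -1.04 ± 0.47 (0.0028). Other members moved with the labelling. LHCB4.1 was at -1.66, -0.81, -0.26 and -1.66 (0.016), and LHB1B2 at -2.03, -0.58, 0.03 and -1.57 (0.036). The list's median was -1.09 and -1.39 on replicates 1 and 4, with Dex RNA in Cy3, and -0.37 and -0.26 on replicates 2 and 3. The part of the dye in this difference was not tested beyond the term for dye in the fit; with no dye term LHCB4.1 and LHB1B2 lost their calls (0.05 and 0.086). Without 12 h replicates 1, 2 or 4 their adjusted p was 0.072, 0.079 and 0.078, and 0.18, 0.12 and 0.13, and the count of falls in the list was 2 without replicate 2 or 4. At 4 h the list's median ranged from -0.32 to 0.12 over arrays, and at 72 h from -0.80 to 0.23.

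**Figure D3:**
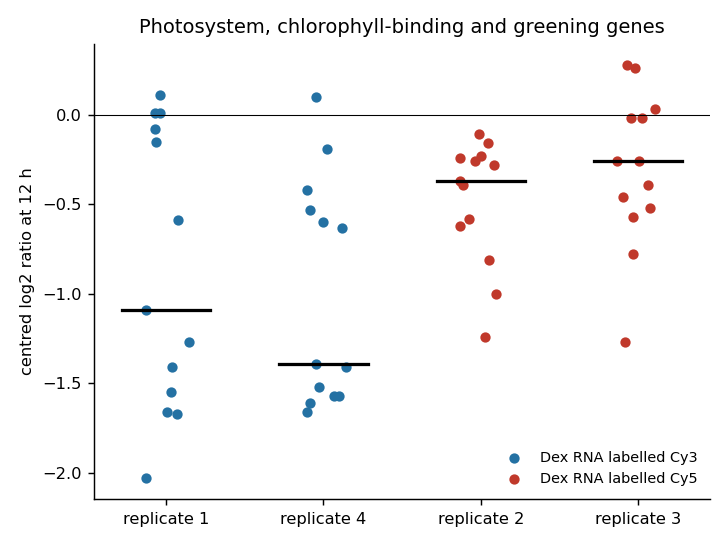
Centred log2 ratios at 12 h (y axis) of the 13 tested photosystem, chlorophyll-binding and greening genes on each array (x axis), coloured by the dye of the Dex RNA, with a black line at the array's median. The medians are -1.09 and -1.39 where Dex RNA carried Cy3 and -0.37 and -0.26 where it carried Cy5.

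The 12 h ratios were set against those at 4 h and 72 h in the same fit. Mock RNA was of the same time on each array, so the times share no control RNA. Of the features higher at 12 h, 86.5% had a mean above 0 at 4 h and 85.4% at 72 h, and of those lower at 12 h, 88.1% and 88.3% had a mean below 0. Over all tested features the shares were 64.5% at 4 h and 62.7% to 62.8% at 72 h. The ratio itself differed between 12 h and 4 h in 441 features (2.43%), 188 higher at 12 h (1.04%) and 253 lower (1.4%). With the replicate number as a block this count was 157. The ratio differed between 12 h and 72 h in 750 (4.14%), 253 higher at 12 h (1.4%) and 497 lower (2.74%). With the block the latter count was 327. Replicate arrays spread most at 72 h, with a median SD over tested features of 0.34, against 0.21 (4 h) and 0.19 (12 h). The fit does not allow for this, since the times share 1 estimate of the spread. The counts of 441 and 750 are therefore not directly comparable. Of the features called at 12 h, 305 differed from 4 h and 356 from 72 h.

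**Figure D4:**
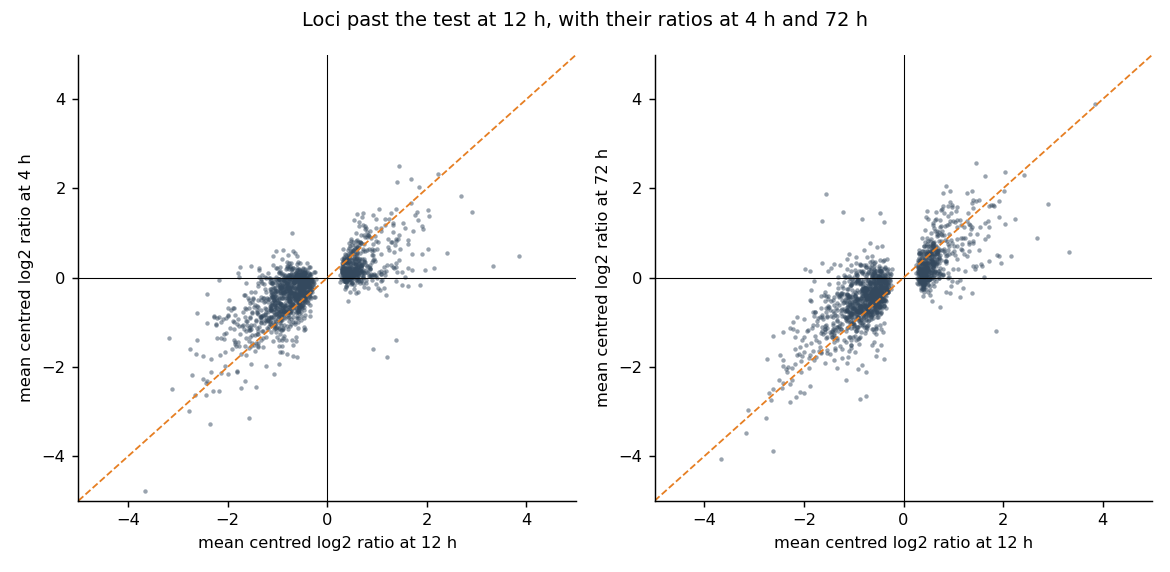
Mean centred log2 ratios at 4 h (left) and 72 h (right) on the y axes against those at 12 h on the x axes for the 1496 loci past the test at 12 h. The dashed line marks equal ratios, and most points lie in the quadrants of equal sign.

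DFR stood apart at 12 h from both other times. Its ratios were -0.16, 1.87 and 0.51 at 4, 12 and 72 h, a difference of 2.02 from 4 h (SE 0.19; limma adjusted p = 0.0016) and of 1.36 from 72 h (SE 0.19; 0.0054). Both held under all 21 alternatives run. BGLU47 was at 0.26, 3.33 and 0.57 at 4, 12 and 72 h, with differences of 3.03 (SE 0.24; 0.00097) and 2.76 (SE 0.22; 0.00079), and both were lost with limit values kept (0.95 and 0.38). AT2G25450 was also higher at 12 h than at 4 h and 72 h, by 1.42 and 1.23 (0.034 and 0.045), calls lost under 9 and 12 of 21 alternatives. Both were among those lost with the replicate block (0.11 each). CYP71B20 was lower at 12 h, with a difference of -0.91 from 4 h (SE 0.13; 0.0074; held under all 21) and of -0.74 from 72 h (0.015; lost under 5). The latter was lost with the replicate block (0.051) and without 12 h replicates 2, 3 or 4, among others.

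Other genes had reached at 12 h a ratio near that at 72 h. AT2G38380 went from 0.49 at 4 h to 3.85 at 12 h and 3.90 at 72 h (difference from 4 h 3.36, SE 0.45; limma adjusted p = 0.0063), and tny from 0.56 to 2.41 and 2.30 (1.86, SE 0.19; 0.0022). On the falling side AOP3 went from -1.35 to -3.17 and -3.48 (difference -1.82, SE 0.25; 0.0073), scpl31 from 0.23 to -1.75 and -1.78 (-1.98, SE 0.14; 0.00023), and AT4G37520 from -0.89 to -2.17 and -1.93 (-1.28, SE 0.18; 0.0073). Each of these 5 differences from 4 h held under all 21 alternatives run. For the 5 genes the 12 h and 72 h ratios did not differ past the threshold, with adjusted p between 0.5 and 0.97.

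A further set was lower at 12 h than at 72 h. PUP18 had ratios of -1.18, -1.55 and 1.88 at 4, 12 and 72 h, a difference of -3.43 between the last 2 times (SE 0.19; limma adjusted p = 5e-05). AT5G39110 was at -0.70, -1.64 and 1.27 (difference -2.91, SE 0.23; 0.00044), and SWEET11 at -0.93, -1.79 and -0.08 (-1.70, SE 0.20; 0.002). XTH33 was at 0.32, -0.40 and 1.25 (-1.65, SE 0.13; 0.00056), and UGT88A1 at -1.12, -1.58 and -0.53 (-1.04, SE 0.14; 0.0046). These 5 differences from 72 h held under all 21 alternatives run. SWEET1 was lower at 12 h than at either other time (0.042 and 0.027), calls lost under 11 and 7 of 21 alternatives. With the replicate block the adjusted p was 0.12 against 4 h and 0.078 against 72 h. Of the 15 CC-type glutaredoxins, 0 differed past the threshold in limma's test between 12 h and either other time, with 5 and 3 at an unadjusted p under 0.05 against 4 h and 72 h.

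**Figure D5:**
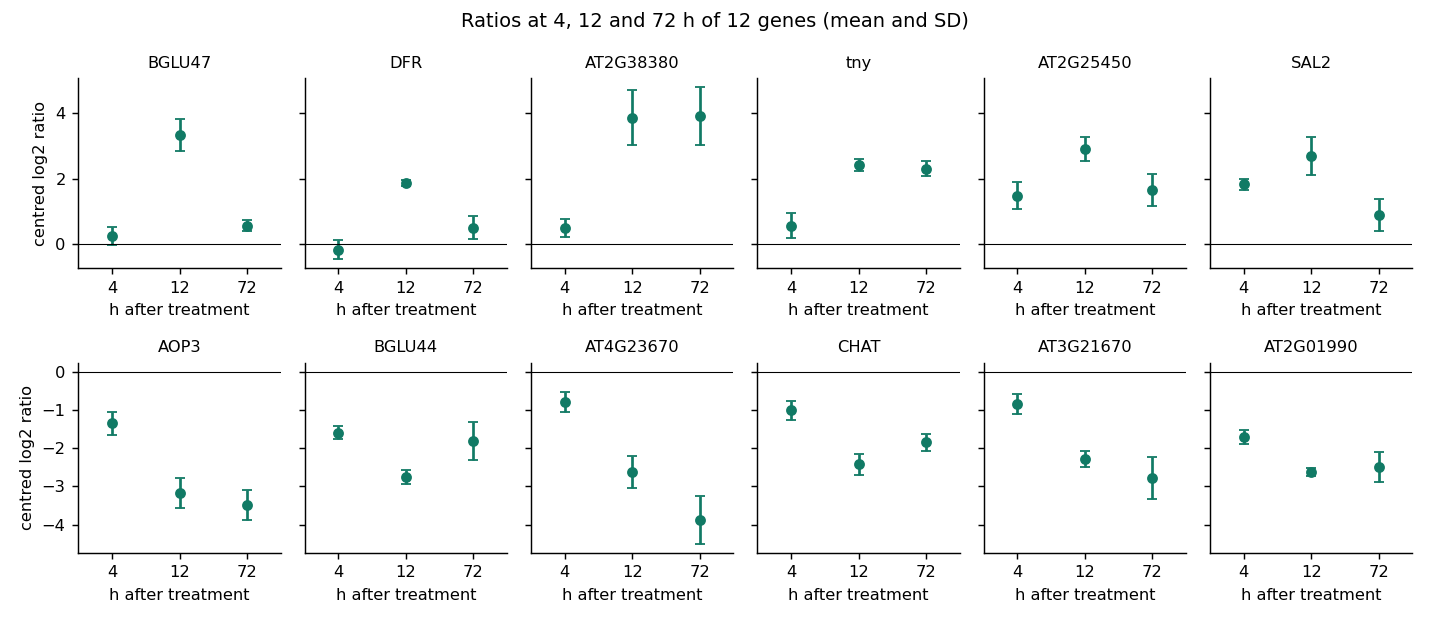
Mean centred log2 ratio (y axis) at 4, 12 and 72 h (x axis) for 12 genes, with bars of 1 SD over arrays. BGLU47 and DFR are highest at 12 h, AT2G38380 and tny are near the same height at 12 h and 72 h, and the lower row holds falls.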

How the data were processed

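RNA of Dex-treated and mock-treated inflorescences, both taken as 35S:HAN-GR, was co-hybridised on 12 two-colour arrays. The authors deposited 1 log2 ratio per probe and array. Per the labels' protocols, RNA was amplified by in vitro transcription before the dyes were coupled. The labels name no background correction, normalization, centring or direction; base 2 was inferred from the largest and smallest values, which are those of a 100-fold ratio. Of 26540 rows, 450 controls and blanks were left out. Of 26090 gene probes 13960 had 1 gene name, 0 several and 12130 none. The gene IDs of 13912 matched the TAIR10.1 gene table (13698 loci, 1496 with a symbol beyond the locus identifier), which was used for names and neighbours. Probes of a locus were averaged. No column lacked a sample (0 unmapped).

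Values at a limit were set missing, features needed 3 of 4 values at each time, and the median of the tested features was subtracted from every array. limma 3.58.1 (R 4.3.3) fitted 1 mean per time and a term for the labelled dye over the 12 arrays, so the times share 1 estimate of the spread; the fit was tested on simulated data. Deviations from the group means of arrays with the same replicate number correlated at 0.145, 0.198, 0.346 and 0.248 between 4 h and 12 h. Once the dye effect was removed they correlated at -0.0232 to 0.301. Against 72 h they correlated below 0. Once the dye effect was removed, the values against 72 h were 0.0402 to 0.335 for 12 h and -0.288 to 0.13 for 4 h. The labels name no shared source, and whether the numbers pair the arrays was not tested. Adjusted p-values are Benjamini-Hochberg values over 18126 features (7501 of them unnamed probes), two-sided. Values in the text are means ± SD over arrays. Tables and figures were made with Python 3.11.15, pandas 2.3.3, numpy 2.4.6 and matplotlib 3.10.9.

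The genes named are the 20 largest rises and falls with 1 sign on all 4 arrays, up to 4 called members of each list in each direction, and every tested member of the flower and glutaredoxin lists; RR21, PIFI, the purine permeases PUP16 and PUP19 and the pair AT5G38120 and AT5G38130 lie outside this rule and were named after their values were seen. Members and lists were chosen with earlier results of these data known.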

Additional observations from a re-analysis of the deposited data

Results flagged for a closer look

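These results are values with no explanation given. Over all 142 genes named by the rule above, 28 differed from 4 h and 24 from 72 h. Only 64 of them are taken up here, the 20 largest rises and falls and the flower and glutaredoxin lists. The ratio of 11 of these differed between 12 h and 4 h by limma's test of the difference (values are 12 h minus 4 h, log2). Higher at 12 h were AT2G38380 (3.36), BGLU47 (3.03), DFR (2.02), tny (1.86) and AT2G25450 (1.42). Lower at 12 h were AT4G23670 (-1.83), AOP3 (-1.82), AT3G21670 (-1.43), CHAT (-1.41), BGLU44 (-1.15) and AT2G01990 (-0.92). Of the same 64 genes the ratio of 8 differed between 12 h and 72 h. Higher at 12 h were NRT2.5 (3.12), BGLU47 (2.76), SAL2 (1.72), DFR (1.36), AT4G23670 (1.26), AT2G25450 (1.23) and INO (0.76), and lower was BGLU44 (-0.93). Against 4 h the call was lost for AT2G01990 under 10 of 21 alternatives (among them without any 1 of the 12 h replicates), for AT2G25450 under 9, for BGLU44 under 6, for AT4G23670 under 4 and for AT3G21670 under 2, and for BGLU47 under 1 of 20. With the replicate block the adjusted p against 4 h was 0.1 for AT2G01990, 0.11 for AT2G25450, 0.061 for BGLU44 and 0.062 for AT4G23670. Against 72 h the call was lost for AT4G23670 under 16 of 21, for INO under 14, for AT2G25450 under 12 and for BGLU44 under 10, and of 20 for NRT2.5 under 14, for SAL2 under 3 and for BGLU47 under 1. The block gave adjusted p against 72 h of 0.11 for AT4G23670 and AT2G25450, 0.099 for INO, 0.079 for BGLU44 and 0.12 for NRT2.5. AOP3, CHAT, DFR, tny and AT2G38380 lost none of these calls under the 21 alternatives run. In AT5G11930 the lowest array at 12 h, 0.11, lay far from the other 3. It was the 1 such gene of 62 examined, and chance marks about 1 in 20.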

How the results depend on the processing

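The 2867 calls at 12 h became 6854 with array weights, 4398 with the 12 h arrays alone and 1671 at an adjusted p under 0.01, and 1739 to 3905 when 1 array was left out. The 3905 came without 72 h replicate 3, and the next highest count was 2990, without 72 h replicate 2. The 441 differences from 4 h became 138 with limit values kept, 720 with quantile normalisation, 782 with equal median absolute deviations and 3095 with array weights, and 100 to 920 when 1 array was left out. The 920 also came without 72 h replicate 3, and the next highest count was 506, without 72 h replicate 2. The 750 differences from 72 h became 236 with limit values kept and 2821 with array weights, and 201 to 810 when 1 array was left out. The cause was not tested. With a replicate block over all 3 times the counts were 2397, 157 and 327. With it 14 of 28 named differences from 4 h and 14 of 24 from 72 h lost the call. Deviations of arrays with the same number correlated at 0.145 to 0.346 between 4 h and 12 h and at -0.287 to -0.105 between 12 h and 72 h. Each number had opposite labelling at 12 h and 72 h. With the dye effect removed the correlations were -0.0232 to 0.301 and 0.0402 to 0.335. Whether the numbers pair the arrays was not tested. Of 129 named genes past the test at 12 h, 93 kept the call under every alternative run and 36 lost it at least once, 21 of them with limit values kept, and 0 changed direction. The higher share of calls was 33.7%. It was 36.3% to 40.3% under other scalings, and over all alternatives 27.8% (without 12 h replicate 1) to 44.5% (array weights). With 4 arrays a time, and no measure of signal over background, small changes are not well resolved.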

Other observations

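A list of chlorophyll synthesis, Calvin cycle, photorespiration and NDH genes was drawn up after the values were seen, so it is described without a test of the list. Of 21 tested members 13 fell and 0 rose, with a median of -0.63. Among the falls were LSMT-L, TROL and CaS, whose place in these pathways was not checked. The count of falls was 7, 7 and 6 without 12 h replicates 2, 3 and 4, and 9 with a replicate block. RCA, the activase of Rubisco, stood at -2.73, -1.74, -1.41 and -2.81 (-2.17 ± 0.70, SD, n = 4; limma adjusted p = 0.0025), lowest on the arrays with Dex RNA in Cy3. HPR, a hydroxypyruvate reductase of photorespiration, was at -1.34 ± 0.36 (0.00012), and CHLM, a methyltransferase of chlorophyll synthesis, at -1.10 ± 0.27 (0.00026). HEMB1, of the first steps of that pathway, was at -0.62, -0.62, -0.67 and -0.84 (0.00038), with overlapping labellings. SBPASE, of the Calvin cycle, was at -0.82 ± 0.53 (0.0084), and its adjusted p was 0.061 without 12 h replicate 4. PORB is in this list and in the photosystem list.

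RNA polymerase subunits were a second list chosen after the values were seen. Of 13 tested members 2 rose and 0 fell, with a median of 0.27, and 1 rose without any 1 of the 12 h replicates. Over all features 15.8% were called and 5.33% were higher. The share called in the list is near that of all features and is not read as a result about these genes. The count was 4 and 7 without 72 h replicates 2 and 3. NRPA1 and NRPA2, the large subunits of RNA polymerase I, were at 0.58 ± 0.20 (limma adjusted p = 0.0076) and 0.59 ± 0.38 (0.022). The call of NRPA1 was lost without 12 h replicate 2 (0.054), and that of NRPA2 with a replicate block (0.061) and without 12 h replicates 1, 3 or 4.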
